A study of Homo sapiens with 16 samples.

Results

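The integrated stress response genes described here are 42 human genes chosen by name, of 35810 genes in the table of summed reads. They comprise ATF4 with 12 other transcription factors and feedback genes, 10 genes of amino acid and one-carbon synthesis, 7 amino acid transporters, 9 genes of tRNA charging and tRNA export, and 3 genes of secreted or surface proteins. All 42 passed the filter on low counts and were among the 16705 genes tested. Their levels were followed in pancreatic progenitors during depolymerisation of actin with latrunculin B (LatB).

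All 16 RNA-seq libraries were made from poly(A) RNA of SA121, a human embryonic stem cell line, with the genotype NGN3-GFP, a reporter of the endocrine factor NEUROG3. The cells had been differentiated in culture to day 19, the pancreatic progenitor stage. Groups were control 0 h (3 libraries), control 24 h with the vehicle DMSO (2 libraries), and 0.5 µM LatB for 3 h (3 libraries), 6 h (3), 12 h (2) and 24 h (3). The label of control 0 h names DMSO while the study places it before treatment, so its exposure to vehicle is uncertain. All groups share 1 cell line and 1 reporter genotype. LatB at 3, 6 and 12 h was compared with control 0 h, which these comparisons share, and LatB at 24 h with control 24 h. At 3, 6 and 12 h there was no matched vehicle group to compare with, so the drug and the hours in culture cannot be told apart there.

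The integrated stress response is a route by which several kinases that sense stress, such as lack of amino acids, unfolded protein or mitochondrial damage, phosphorylate the translation factor eIF2. Overall translation then falls while the mRNA of ATF4 is translated more. ATF4 is a bZIP transcription factor, and with partners such as C/EBP proteins it activates genes that import and make amino acids, charge tRNAs and, in long stress, promote cell death. The secretory pancreas depends on this route for its protein folding load. The libraries measure mRNA, so neither phosphorylation of eIF2 nor ATF4 protein was measured.

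Sequences of 6 promoters are shown because ATF4 partners bind a known element, the C/EBP-ATF response element, whose core is TGATGNAA, where N is any base. RefSeq windows of 250 bases before to 50 bases after a start site (GRCh38.p14) were searched on both strands for this core and for no other motif. Of the 42 members, 35 had 1 or more windows, and 13 of these held the core (37.1%), against 1217 of 27305 genes in the whole table (4.46%). Counted by window, 13 of 55 windows of members (23.6%) and 1270 of 35116 windows in all (3.62%) held it. The members were chosen by name as genes of the ATF4 response, which favours a higher share, so the difference is no independent result. The 6 members shown are those with the core and the largest called changes under LatB. Each run is written 5′ to 3′ along the strand of its gene, with the core in capitals. TTNCATCA is the core on the opposite strand.
CHAC1: tcccctgccgTTGCATCActcctgccag
SLC7A1: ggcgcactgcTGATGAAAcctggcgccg
ATF3: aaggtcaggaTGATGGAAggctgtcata
CARS1: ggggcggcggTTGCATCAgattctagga
JDP2: tagccggggcTGATGCAAcccgtcccgc
SLC3A2: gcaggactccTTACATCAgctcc

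The CHAC1 run lies on the plus strand at chr15:40953252-40953279, and its core begins at -209, counted from the RefSeq start base as 0. By GENCODE the core is in a UTR of a CHAC1 transcript with an earlier start. SLC7A1 (minus strand, chr13:29595664-29595691) holds the core in its UTR, beginning at 7. In ATF3 (plus strand, chr1:212565206-212565233) the core begins at -191 and lies before the gene. CARS1 (minus strand, chr11:3057408-3057435) has it at -2, in a UTR. In JDP2 (plus strand, chr14:75427996-75428023) it starts at -16 and is intronic to a longer transcript. For SLC3A2 (plus strand, chr11:62881726-62881748) it begins at 37, within coding sequence of a transcript.

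The core was found in 5 of 9 tRNA genes, 3 of 6 transporters, 4 of 11 factors and feedback genes, 1 of 6 synthesis genes and 0 of 3 secreted or surface genes that had a window. It was held by 10 of the 25 members called only higher under LatB, and by 3 of the 8 called only lower. Those 3 were AARS1, CEBPG and JDP2. A match is a description of these letters, and binding was not measured.

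The cells carried the markers of their label. Summed over 9 progenitor genes, levels were 1091 to 1518 CPM in every library, where CPM expresses the reads of a gene per scaled library size. PDX1, the master factor of the pancreas, stood at 222.1 to 395.2 CPM, while PTF1A, another gene of that list, was at 0.0677 to 0.732 CPM. The pluripotency genes POU5F1 and NANOG together held 1.36 to 2.95 CPM. Liver-type genes were also present, at 447.1 to 1436 CPM summed over 4 genes. Most of this was APOA1 (298.7 to 798.2 CPM) and TTR (112.4 to 586.4 CPM), while ALB was at 0 to 6.28 CPM. Libraries held 23609727 to 33515398 estimated reads. LatB 12 h stood apart: its libraries correlated at 0.967 across genes, against 0.98 to 0.986 within the other groups. In bulk RNA, fewer cells of a type and less RNA per cell cannot be told apart. Labels do not say whether replicates were separate cultures, so p-values measure the spread between these libraries, which may be technical.

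Before treatment the members covered a wide range of levels. On the TPM scale, which corrects for transcript length, control 0 h was led by MARS1 at 260.9 ± 20.7 TPM, PHGDH at 234.2 ± 10.1 TPM and ATF4 at 210.1 ± 4.97 TPM (SD, n = 3). The factors downstream of ATF4 were lower, with ATF3 at 22.4 ± 2.15 TPM, DDIT3 at 14.1 ± 0.449 TPM and CHAC1 at 2.08 ± 0.482 TPM (SD, n = 3). ALDH1L2 and NUPR1 were the lowest members, at 0.478 ± 0.309 and 0.366 ± 0.0824 TPM. MARS1 and PHGDH lay within their summed SDs of each other, whereas ATF4 lay beyond them from PHGDH and from ATF3.

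LatB was accompanied by more rises than falls among the members at each time. At 3 h, 17 members were called higher (40.5%) and 5 lower (11.9%), against 16.8% higher and 14.7% lower among all genes tested (edgeR quasi-likelihood test, adjusted p under 0.05). At 6 h, 19 were higher (45.2%) and 4 lower (9.52%), against 22.9% and 20.4% of all genes. The median log2 fold change of the members was 0.18 at 3 h and 0.22 at 6 h, against 0.00 and -0.01 over all genes. At 12 h, 16 members were higher (38.1%) and 5 lower (11.9%), where all genes gave 19.1% and 16.8%. At 24 h, 15 were higher (35.7%) and 7 lower (16.7%), against 21.9% and 18.8%. The share of members called higher exceeded that of all genes at every time. The share called lower was below it, but near it at 3 h (11.9% against 14.7%) and 24 h (16.7% against 18.8%).

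Not every call was equally firm. Leaving out each library in turn, 12 of 17 rises held at 3 h and 17 of 19 at 6 h, but 6 of 16 at 12 h and 8 of 15 at 24 h. At 12 h the count of rises was 9 without control 0 h replicate 2, and at 3 h the falls numbered 3 without LatB 3 h replicate 3. Leaving out a library of LatB 12 h or control 24 h left that group without a replicate. The held calls at 12 h and 24 h include those refits, but their counts are not compared here. With the fit restricted to the groups compared, 6 rises were called at 12 h, and with limma-trend on TPM 7 at 12 h and 9 at 24 h. Calls over all genes fell too. Rises at 12 h were 3189 of 16705 genes in the main fit and 1307 of 15773 in the restricted fit. They were 2374 of 16642 without control 0 h replicate 2. Limma-trend gave 2042 rises at 12 h and 2450 at 24 h of 16705 genes, where the main fit gave 3189 and 3661. Falls at 3 h went from 2461 of 16705 genes to 2070 of 16648 without LatB 3 h replicate 3.

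Between the controls no member was called: control 24 h against control 0 h had 0 members called, where all genes gave 0.0299% higher and 0.221% lower. At an unadjusted p under 0.05, edgeR had 1 member, SLC7A1, beside 1414 of the 16705 genes tested. DESeq2 also called 0 members, with 44 genes higher and 221 lower of 15304.

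**Figure D1:**
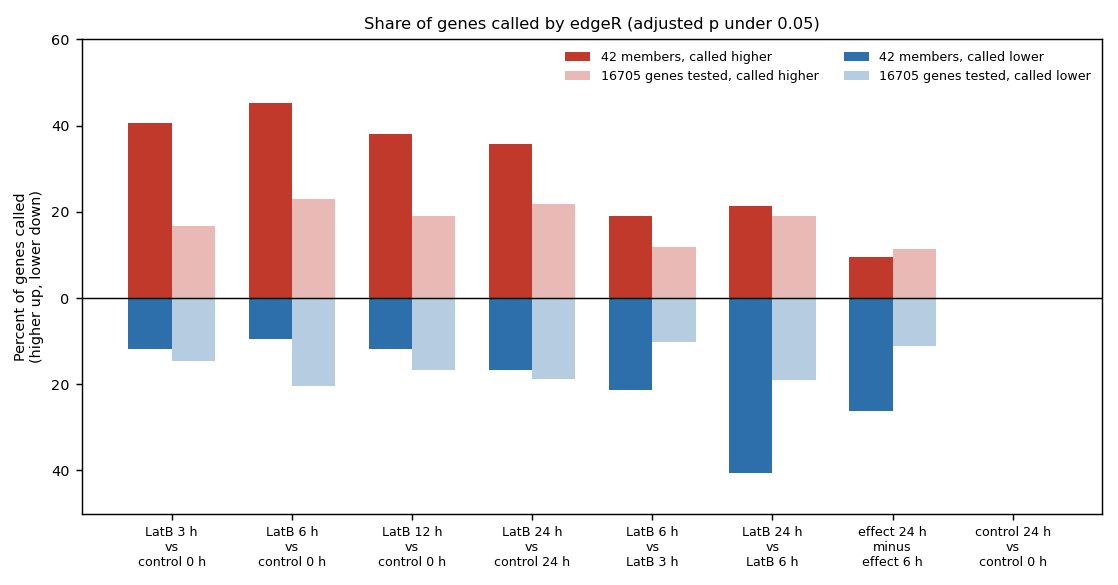
Percent of genes called higher (upward bars) or lower (downward bars) by edgeR in 8 comparisons, for the 42 members (solid) and for the 16705 genes tested (pale). The solid upward bars reach 40.5% at 3 h and 45.2% at 6 h. No member was called between the controls, where 0.0299% of all genes were called higher and 0.221% lower.

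Of the factors at the head of the response, ATF4, DDIT3, ATF3 and ATF5 were called higher at both 3 h and 6 h. ATF4 itself (ENSG00000128272.18, GRCh38 chromosome 22, 39519695 to 39522683, plus strand) stood at 176.5, 191.6 and 178.2 CPM in control 0 h and 190.1 and 180.2 CPM in control 24 h. LatB libraries held 389.8, 392.9 and 374.5 CPM at 3 h and 323.1, 311.4 and 308.8 CPM at 6 h. Later they held 238.1 and 249.2 CPM at 12 h, and 222.0, 193.9 and 201.3 CPM at 24 h. All LatB libraries lay above all controls, and each LatB group lay below the one before it without overlap. The log2 fold change was 1.08 at 3 h (SE 0.0537, edgeR adjusted p 2.35e-08), 0.79 at 6 h (SE 0.0535, adjusted p 2.28e-07) and 0.42 at 12 h (SE 0.0591, adjusted p 0.000134). At 24 h it was 0.15 (SE 0.0597, adjusted p 0.0577) and was not called, though DESeq2 called it (adjusted p 0.0466).

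DDIT3 (ENSG00000175197.13, chromosome 12, 57516588 to 57521737, minus strand) encodes CHOP, a factor that promotes cell death in long stress. Its libraries held 7.05, 7.57 and 7.04 CPM in control 0 h, and 8.64 and 8.17 CPM in control 24 h. LatB gave 16.02, 14.9 and 12.5 CPM at 3 h, and 12.2, 10.59 and 9.82 CPM at 6 h. At 12 h DDIT3 stood at 9.49 and 10.96 CPM, and at 24 h at 8.94, 7.98 and 8.15 CPM. Every library of the first 12 h of LatB exceeded control 0 h, while the 24 h libraries overlapped their control. DDIT3 rose by 1.001 (SE 0.109, edgeR adjusted p 1.66e-05) at 3 h, 0.59 (SE 0.11, adjusted p 0.00076) at 6 h and 0.50 (SE 0.122, adjusted p 0.00599) at 12 h on the log2 scale. The 12 h call was lost without LatB 12 h replicate 2 (0.39, adjusted p 0.0645). At 24 h the change was -0.01 (adjusted p 0.961).

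CHAC1 (ENSG00000128965.13, chromosome 15, 40952962 to 40956512, plus strand), an enzyme that degrades glutathione, had the largest rise of any member at 3 h. Controls held 2.31, 1.51 and 2.12 CPM at 0 h and 2.24 and 2.25 CPM at 24 h. LatB libraries held 12.6, 11.3 and 8.01 CPM at 3 h, and 6.58, 4.88 and 4.77 CPM at 6 h. They held 2.93 and 4.97 CPM at 12 h, and 2.39, 2.86 and 2.36 CPM at 24 h. The 3 h libraries were the highest, each later group had a lower mean, and the 24 h libraries lay just above their control. The log2 fold change was 2.43 at 3 h (SE 0.239, edgeR adjusted p 6.8e-06), a fold of 5.38, then 1.46 at 6 h (SE 0.238, adjusted p 0.000279). At 12 h it was 1.01 (SE 0.262, adjusted p 0.00891), but 0.57 without LatB 12 h replicate 2 (adjusted p 0.17), and at 24 h 0.18 (adjusted p 0.631).

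ATF3 (ENSG00000162772.18, chromosome 1, 212565334 to 212620777, plus strand), an early stress factor, departed from this course. Control 0 h libraries held 22.2, 20.8 and 22.2 CPM and those of control 24 h 20.5 and 23.0 CPM. LatB gave 61.8, 69.2 and 67.6 CPM at 3 h, and 42.4, 39.2 and 36.8 CPM at 6 h. At 12 h the libraries held 26.7 and 23.5 CPM, and at 24 h 57.0, 41.4 and 51.8 CPM. ATF3 was thus high at 3 h, near control at 12 h and high again at 24 h. It rose by 1.61 (SE 0.104, edgeR adjusted p 2.63e-07) at 3 h, 0.86 (SE 0.105, adjusted p 2.54e-05) at 6 h and 1.20 (SE 0.118, adjusted p 8.61e-06) at 24 h on the log2 scale. At 12 h the change was 0.21 (SE 0.118, adjusted p 0.192).

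ATF5, a bZIP factor whose mRNA is translated under stress like that of ATF4, was higher at all 4 times, with log2 fold changes of 1.15, 0.88, 0.38 and 0.48 (edgeR adjusted p at most 0.000579). Its level went from 16.7 ± 0.211 CPM in control 0 h to 37.0 ± 2.74 CPM at 3 h (SD, n = 3). PPP1R15A, the inducible subunit of the phosphatase that restores eIF2, was higher at 3 h only, by 0.61 (SE 0.0804, adjusted p 7.43e-05), from 56.2 ± 2.99 to 86.1 ± 4.39 CPM (SD, n = 3). SESN2, a brake on mTORC1, was called at 12 h only (0.60, adjusted p 0.0121), and its change there was 0.19 without LatB 12 h replicate 2.

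Some feedback genes went the other way. JDP2 (ENSG00000140044.13, chromosome 14, 75427716 to 75474111, plus strand), a bZIP repressor, had the largest fall of any member at 6 h and 12 h. Its libraries held 12.2, 11.3 and 12.9 CPM in control 0 h and 12.9 and 12.9 CPM in control 24 h. LatB gave 10.5, 10.5 and 9.13 CPM at 3 h, and 7.84, 7.15 and 7.09 CPM at 6 h. At 12 h they were 4.20 and 5.65 CPM, and at 24 h 7.88, 6.66 and 7.45 CPM. Every LatB library lay below every control. JDP2 fell by 0.72 (SE 0.111, edgeR adjusted p 0.000169) at 6 h, 1.296 (SE 0.13, adjusted p 8.96e-06) at 12 h and 0.81 (SE 0.12, adjusted p 0.000174) at 24 h on the log2 scale. At 3 h the change was -0.27 (adjusted p 0.0737).

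TRIB3, a pseudokinase that restrains ATF4 and a commonly used readout of the response, was called lower at 3, 6 and 12 h. It fell by 0.57 (SE 0.138, edgeR adjusted p 0.00629), 0.66 (SE 0.139, adjusted p 0.00183) and 0.62 (SE 0.158, adjusted p 0.00808) on the log2 scale, and its change at 24 h was -0.40 (adjusted p 0.0507). Its mean went from 10.5 ± 0.948 CPM in control 0 h to 6.63 ± 0.291 CPM at 6 h (SD, n = 3). The 12 h call was lost without LatB 12 h replicate 1 (-0.35, adjusted p 0.0783). CEBPG, a dimer partner of ATF4, was called lower at 3 h and 12 h by small amounts (-0.11 and -0.15), and CEBPB, another partner, at 24 h (-0.45). Each of those 3 calls was lost on leaving out single libraries. In this role group of 13, the called members were 6 higher and 2 lower at 3 h, 5 and 2 at 6 h, 5 and 3 at 12 h, and 2 and 2 at 24 h. As shares, the rises were 46.2%, 38.5%, 38.5% and 15.4%, against 16.8%, 22.9%, 19.1% and 21.9% of all genes. The falls were 15.4%, 15.4%, 23.1% and 15.4%, against 14.7%, 20.4%, 16.8% and 18.8%. With 13 genes, the 2 rises and 2 falls at 24 h are near the shares of all genes.

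**Figure D2:**
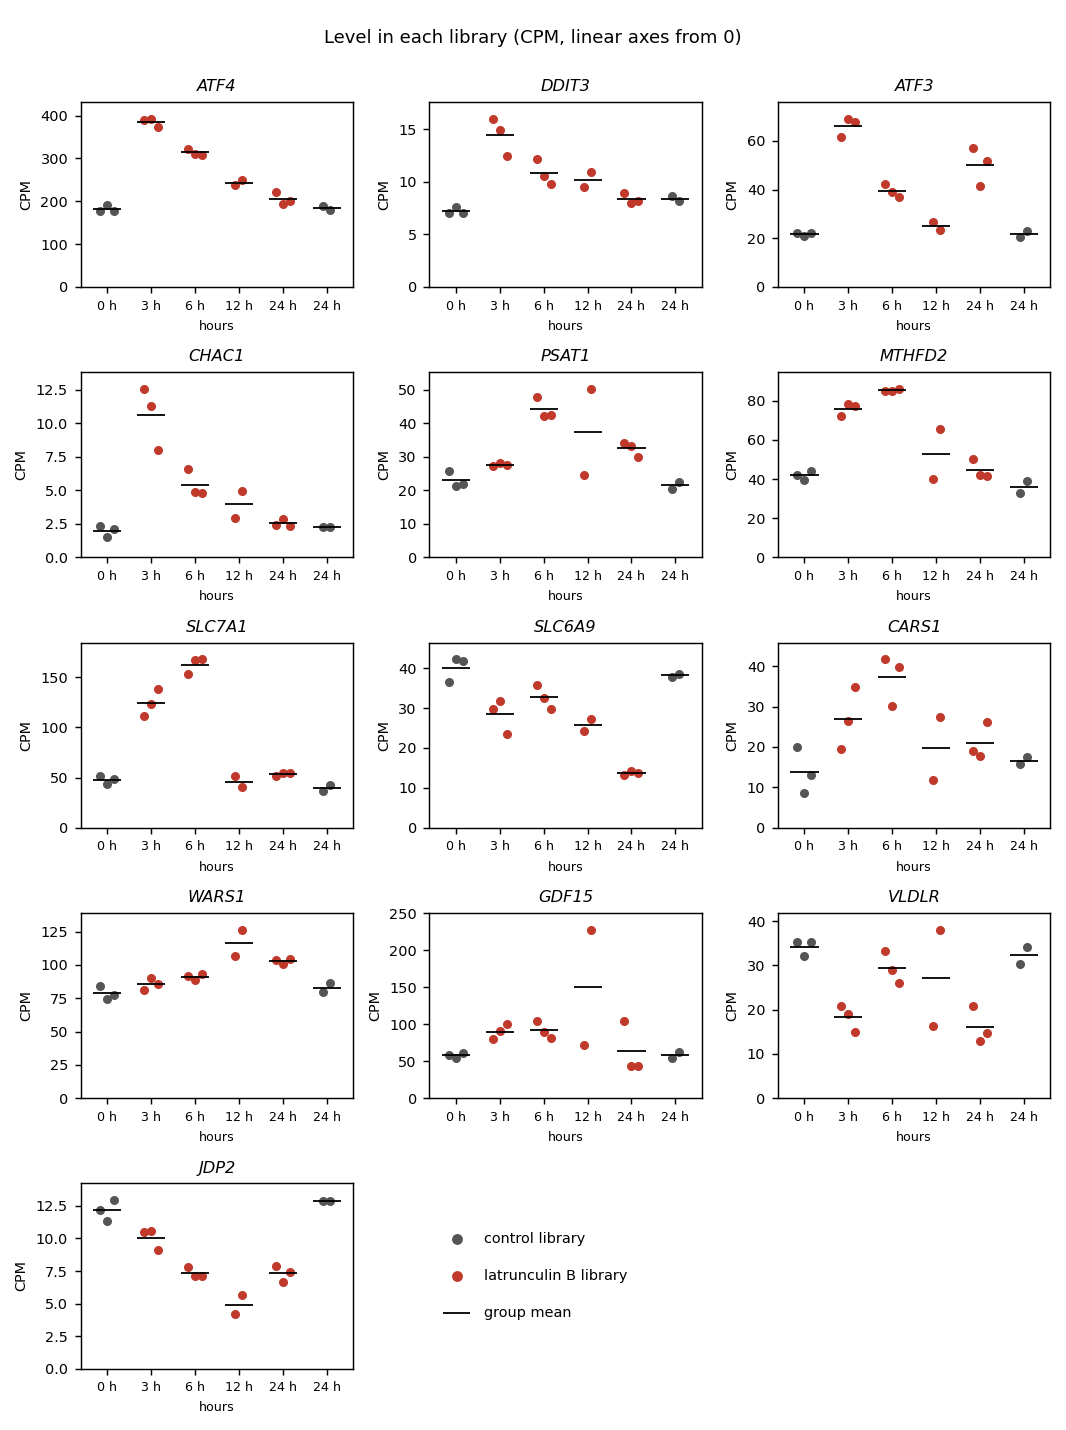
CPM of 13 named members in each library (points), with the group mean (line), by hours of treatment, controls in grey and LatB in red. ATF4 falls from 374.5 to 392.9 CPM at 3 h towards control by 24 h, while SLC6A9 is lowest at 24 h, at 13.2 to 14.2 CPM.

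Among the enzymes of serine and one-carbon metabolism, MTHFD2 was called higher at 3 h and 6 h, and PSAT1 from 6 h on. PSAT1 (ENSG00000135069.14, chromosome 9, 78297125 to 78330093, plus strand) makes phosphoserine. It stood at 25.8, 21.4 and 21.8 CPM in control 0 h, 20.5 and 22.5 CPM in control 24 h, and 27.2, 28.1 and 27.7 CPM at 3 h of LatB. At 6 h it held 47.9, 42.2 and 42.5 CPM, at 12 h 24.6 and 50.3 CPM, and at 24 h 34.1, 33.4 and 30.1 CPM. The 6 h and 24 h libraries all lay above their controls, whereas the 12 h libraries split, with replicate 1 inside the control range. PSAT1 was higher at 6 h by 0.94 (SE 0.181, edgeR adjusted p 0.00093), at 12 h by 0.71 (SE 0.199, adjusted p 0.0139) and at 24 h by 0.60 (SE 0.204, adjusted p 0.0318) on the log2 scale. Without LatB 12 h replicate 2 the 12 h change was 0.10 (adjusted p 0.568), without control 0 h replicate 2 it was 0.64 (adjusted p 0.0534), and the 24 h call was lost without either control 24 h library, LatB 24 h replicate 1 or LatB 24 h replicate 2.

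MTHFD2 (ENSG00000065911.13, chromosome 2, 74186172 to 74217565, plus strand) is the mitochondrial dehydrogenase that passes folate-bound carbon to formate. Controls held 42.2, 39.3 and 44.3 CPM at 0 h and 33.1 and 38.9 CPM at 24 h. LatB gave 72.0, 78.2 and 77.2 CPM at 3 h and 84.8, 85.0 and 85.9 CPM at 6 h. Later libraries held 39.8 and 65.8 CPM at 12 h, and 50.4, 42.3 and 41.7 CPM at 24 h. It was high at 3 h and 6 h, and the 12 h libraries again split. MTHFD2 rose by 0.85 (SE 0.137, edgeR adjusted p 0.000366) at 3 h and 1.02 (SE 0.138, adjusted p 5.76e-05) at 6 h on the log2 scale. At 12 h and 24 h it was not called (0.34 and 0.32, adjusted p 0.104 and 0.123), though at 12 h it was called without LatB 12 h replicate 1 (0.65, adjusted p 0.000425).

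ASNS, which makes asparagine and is a classical ATF4 target, went from 30.1 ± 2.21 CPM in control 0 h to 47.7 ± 3.55 CPM at 6 h (SD, n = 3). It was higher there by 0.66 on the log2 scale, with SE 0.0936 (edgeR adjusted p 8.64e-05). The gene was also called at 3 h and 12 h (0.32 each), calls that single libraries could end, and at 24 h it stood at -0.08 (adjusted p 0.554). SHMT2, the mitochondrial enzyme that splits serine, was higher at all 4 times, with its largest change at 6 h (0.46, adjusted p 7.51e-06), and its 3 h call (0.16) was lost without any of 5 libraries. CTH, which makes cysteine, was higher at 3 h and 6 h (0.49 and 0.41). PHGDH, the entry enzyme of serine synthesis, and PYCR1, an enzyme of proline synthesis, were called at 24 h only (0.51 and 0.38). PYCR1 lost that call without control 24 h replicate 1 (0.33, adjusted p 0.12). ALDH18A1, also of proline synthesis, was lower at 6 h (-0.14). ALDH1L2, a mitochondrial folate dehydrogenase, was called lower at 24 h (-0.81), but its change was 0.0099 when transcript length was allowed for, and the call was lost without control 24 h replicate 1. PSPH, the last enzyme of serine synthesis, was called at no time, and reads on its pseudogene PSPHP1 came to 3.41% of its own. Of the 10 members, 4, 5, 3 and 4 were higher at 3, 6, 12 and 24 h, and 0, 1, 0 and 1 lower. The rises were 40%, 50%, 30% and 40% of the group, against 16.8%, 22.9%, 19.1% and 21.9% of all genes. The falls were 0%, 10%, 0% and 10%, against 14.7%, 20.4%, 16.8% and 18.8%.

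Among the amino acid transporters, SLC7A1 rose early and SLC6A9 fell at all 4 times. SLC7A1 (ENSG00000139514.13, chromosome 13, 29509414 to 29595688, minus strand), the main carrier of arginine and lysine, had the largest rise of any member at 6 h. Controls held 51.5, 43.8 and 48.1 CPM at 0 h and 36.8 and 42.2 CPM at 24 h. LatB libraries held 111.8, 123.2 and 138.7 CPM at 3 h and 153.0, 166.7 and 167.7 CPM at 6 h. They held 51.1 and 40.6 CPM at 12 h, and 51.4, 54.5 and 54.1 CPM at 24 h. The early libraries were far above control, those of 12 h lay within and below the control 0 h range, and those of 24 h were above control 24 h but inside or just above the range of control 0 h. Its log2 fold change was 1.38 at 3 h (SE 0.0965, edgeR adjusted p 4.56e-07) and 1.76 at 6 h (SE 0.0972, adjusted p 4.04e-08). At 12 h it was -0.06 (adjusted p 0.692) and at 24 h 0.43 (SE 0.109, adjusted p 0.0063). The 24 h call was lost against control 0 h (0.16, adjusted p 0.206) and without control 24 h replicate 1 (0.34, adjusted p 0.0938).

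SLC6A9 (ENSG00000196517.13, chromosome 1, 43991500 to 44031467, minus strand), a glycine transporter, fell. Control 0 h libraries held 36.6, 42.2 and 41.7 CPM, control 24 h 37.8 and 38.5 CPM, and LatB 3 h 29.9, 31.9 and 23.6 CPM. LatB 6 h held 35.9, 32.4 and 29.8 CPM, LatB 12 h 24.2 and 27.2 CPM, and LatB 24 h 13.2, 14.2 and 13.8 CPM. All LatB libraries lay below all controls, with those of 24 h far below the rest. It was the only member called lower at all 4 times, by 0.50 (SE 0.102, edgeR adjusted p 0.0021), 0.30 (SE 0.102, adjusted p 0.0308), 0.64 (SE 0.116, adjusted p 0.000886) and 1.48 (SE 0.114, adjusted p 1.4e-06) on the log2 scale. The 6 h call was lost without any 1 of 4 libraries: control 0 h replicates 2 and 3 and LatB 6 h replicates 2 and 3 (changes of -0.31 to -0.25).

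SLC38A2, a sodium-coupled carrier of small neutral amino acids, changed sides. It was at 329.8 ± 9.40 CPM in control 0 h and 665.8 ± 5.45 CPM at 3 h (SD, n = 3), with log2 fold changes of 1.01, 0.55, -0.10 and -0.35 from 3 to 24 h. The first, the second and the last were called (edgeR adjusted p 3.53e-08, 3.2e-06 and 0.000385). SLC7A5, the light chain of the carrier of large neutral amino acids, was called higher at 3 h (0.20, adjusted p 0.00883), a call lost without control 0 h replicate 2 or LatB 3 h replicate 2. It was lower at 12 h (-0.70, adjusted p 2.21e-06) and 24 h (-0.84, adjusted p 6.47e-07). Its heavy chain SLC3A2 was higher at 3, 6 and 12 h (0.74, 0.64 and 0.64) and at 0.07 at 24 h (adjusted p 0.58). SLC1A5, a glutamine carrier, was called higher at 12 h and 24 h (0.41 and 0.42), and lost each call on leaving out single libraries. SLC7A11, the cystine carrier, was called at no time. Of the 7 transporters, 4, 3, 2 and 2 were higher at 3, 6, 12 and 24 h, and 1, 1, 2 and 3 lower. The rises were 57.1%, 42.9%, 28.6% and 28.6% of the group, against 16.8%, 22.9%, 19.1% and 21.9% of all genes. The falls were 14.3%, 14.3%, 28.6% and 42.9%, against 14.7%, 20.4%, 16.8% and 18.8%.

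Of the 9 genes of tRNA charging and export, 7 were called higher at 24 h (77.8%, against 21.9% of all genes), all by less than 0.4 on the log2 scale. WARS1 (ENSG00000140105.18, chromosome 14, 100333790 to 100376805, minus strand), the tryptophan ligase, held 84.2, 74.2 and 77.6 CPM in control 0 h and 79.4 and 86.2 CPM in control 24 h. LatB gave 81.0, 90.4 and 85.8 CPM at 3 h, and 91.8, 89.0 and 92.9 CPM at 6 h. At 12 h WARS1 stood at 107.0 and 126.3 CPM, and at 24 h at 104.0, 101.0 and 104.6 CPM. Libraries from 6 h onward lay above their controls, and those of 3 h overlapped control. The log2 fold change was 0.12 at 3 h (adjusted p 0.172), 0.21 at 6 h (SE 0.0657, edgeR adjusted p 0.0177), 0.57 at 12 h (SE 0.0724, adjusted p 5.98e-05) and 0.32 at 24 h (SE 0.0734, adjusted p 0.0038). The 6 h call was lost without control 0 h replicate 2 or 3 or LatB 6 h replicate 1 or 3, and the 24 h call without control 24 h replicate 1 (0.26, adjusted p 0.0627).

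SARS1, the serine ligase, followed the same order, with -0.03 at 3 h and calls of 0.29, 0.57 and 0.38 at 6, 12 and 24 h that no single library ended. GARS1, the glycine ligase, was higher at all 4 times (0.29, 0.46, 0.18 and 0.29), though the 12 h call was lost without LatB 12 h replicate 2, control 0 h replicate 2 or control 0 h replicate 3. MARS1 and NARS1, the methionine and asparagine ligases, were each called at 3 of the times, with changes of at most 0.31, and single libraries ended the MARS1 call at 3 h and the NARS1 calls at 12 h and 24 h. EPRS1, the glutamate and proline ligase, and XPOT, which carries tRNA out of the nucleus, were called at 24 h only (0.24 and 0.35), the EPRS1 call being lost without control 24 h replicate 1. AARS1, the alanine ligase, was lower at 3 h (-0.41). Of the 9 members, 3, 6, 4 and 7 were higher at 3, 6, 12 and 24 h, and only AARS1 was ever lower. The rises were 33.3%, 66.7%, 44.4% and 77.8% of the group, against 16.8%, 22.9%, 19.1% and 21.9% of all genes. The fall at 3 h was 11.1% of the group, against 14.7%.

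CARS1 (ENSG00000110619.18, chromosome 11, 3000922 to 3057613, minus strand), the cysteine ligase, had the largest change of this role group but is uncertain. Its libraries held 20.1, 8.71 and 12.9 CPM in control 0 h and 15.7 and 17.5 CPM in control 24 h. LatB gave 19.5, 26.5 and 34.9 CPM at 3 h, and 41.7, 30.2 and 39.8 CPM at 6 h. At 12 h they were 11.8 and 27.5 CPM, and at 24 h 19.1, 17.7 and 26.3 CPM. Only the 6 h libraries lay clearly above control, since control 0 h itself varied more than 2-fold. The log2 fold change was 0.96 at 3 h (SE 0.329, edgeR adjusted p 0.0398) and 1.43 at 6 h (SE 0.33, adjusted p 0.00338). All 6 transcript lengths of CARS1 with at least 50 reads were shared by transcripts that matched no gene, which held 11323 reads beside its own 10324. With those reads added, the changes were 0.56 (SE 0.0632, adjusted p 2.32e-05) at 3 h, 0.76 (SE 0.0633, adjusted p 1.11e-06) at 6 h and 0.28 (adjusted p 0.00692) at 12 h. Without them, the 3 h call was lost on leaving out control 0 h replicate 2 or 3 or LatB 3 h replicate 2 or 3. Other members shared lengths with unmatched transcripts too. For DDIT3 2 of 3 lengths were shared (10095 unmatched reads beside 4511 of its own), and for CEBPG 2 of 3 (29183 beside 31343). A shared length alone does not identify a gene, and only CARS1 was fitted again with such reads.

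Secreted and surface proteins varied widely between the LatB 12 h libraries. GDF15 (ENSG00000130513.7, chromosome 19, 18374731 to 18389176, plus strand), a secreted stress cytokine, stood at 58.1, 54.0 and 61.4 CPM in control 0 h and 54.4 and 61.8 CPM in control 24 h. LatB gave 79.4, 91.1 and 99.98 CPM at 3 h, and 104.5, 90.02 and 81.9 CPM at 6 h. The 12 h libraries held 72.3 and 227.7 CPM, and those of 24 h 104.8, 43.6 and 43.5 CPM. Libraries of the first 12 h all lay above control 0 h, but by amounts that differed within groups, and those of 24 h fell on either side of control. GDF15 was called at 12 h (1.38, SE 0.4, edgeR adjusted p 0.0162), not at 3 h or 6 h (0.64 and 0.67, adjusted p 0.211 and 0.161). Without LatB 12 h replicate 2 the 12 h change was 0.32 (adjusted p 0.559), and without control 0 h replicate 2 it was 1.32 (adjusted p 0.0536).

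VLDLR (ENSG00000147852.17, chromosome 9, 2621182 to 2660056, plus strand), a lipoprotein receptor, held 35.3, 32.04 and 35.2 CPM in control 0 h and 30.3 and 34.2 CPM in control 24 h. LatB libraries held 20.8, 19.0 and 15.0 CPM at 3 h and 33.3, 28.9 and 25.9 CPM at 6 h. At 12 h they were at 16.3 and 38.0 CPM, and at 24 h at 20.7, 12.98 and 14.6 CPM. It was low at 3 h and 24 h and overlapped control between. VLDLR fell by 0.90 (SE 0.246, edgeR adjusted p 0.0125) at 3 h and 1.004 (SE 0.27, adjusted p 0.00943) at 24 h on the log2 scale. The first call was lost without LatB 3 h replicate 3 (-0.80, adjusted p 0.0536) and the second without control 24 h replicate 2 (-0.91, adjusted p 0.061). At 12 h it became a call without LatB 12 h replicate 2 (-1.07, adjusted p 0.00461). STC2, a secreted glycoprotein, was called higher at 12 h (0.91), where its change was -0.16 without LatB 12 h replicate 2, and the call was also lost without any 1 of the 3 control 0 h libraries.

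**Figure D3:**
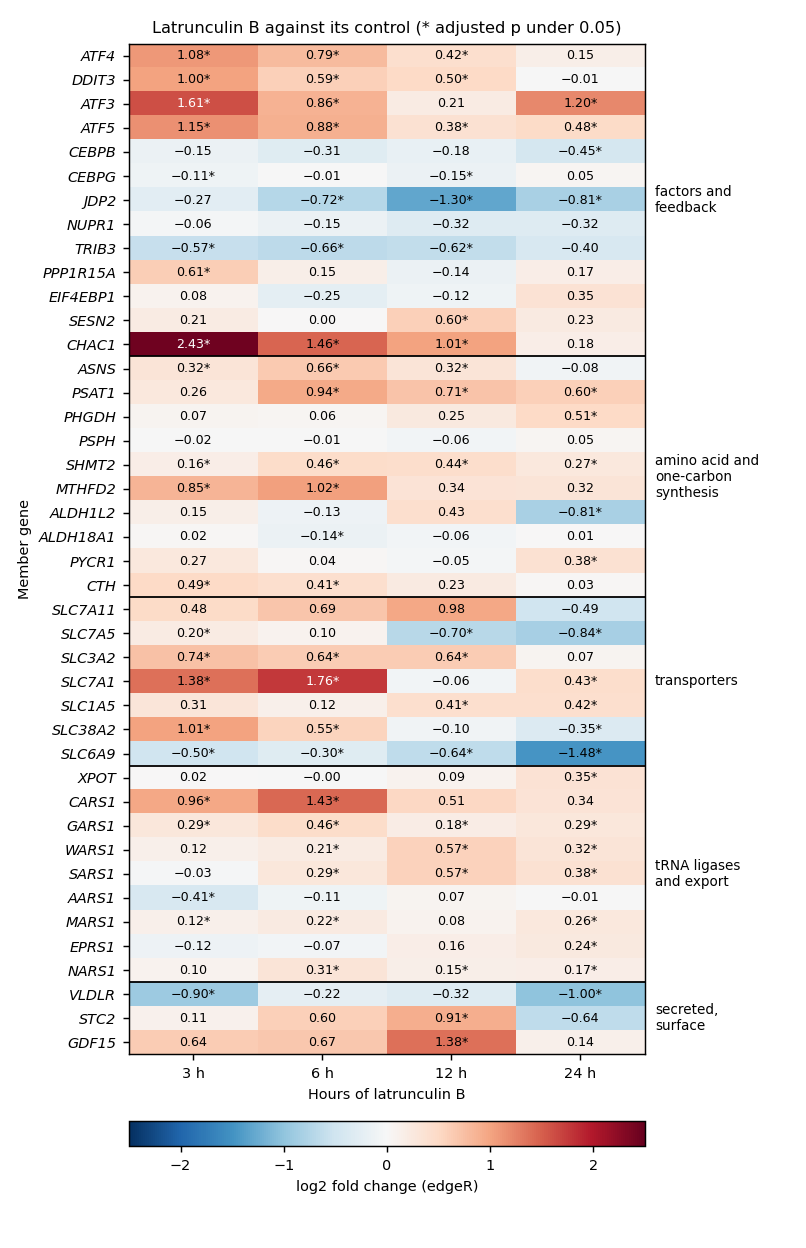
Log2 fold change of each of the 42 members (rows, by role) under LatB against its control at 3, 6, 12 and 24 h (columns), with an asterisk where the edgeR adjusted p was under 0.05. CHAC1 has the strongest rise, 2.43 at 3 h, and SLC6A9 the strongest fall, -1.48 at 24 h.

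Across the 4 times, 27 members were called higher at 1 or more and never lower, 9 were lower and never higher, SLC7A5 and SLC38A2 were called in both directions, and NUPR1, EIF4EBP1, PSPH and SLC7A11 were called at none. The mean CPM over the LatB groups was highest at 3 h for 12 members, at 6 h for 12, at 12 h for 9 and at 24 h for 9. Higher at all 4 times were ATF5, SHMT2 and GARS1. Of the 15 members higher at both 3 h and 6 h, 6 were higher at 24 h, 8 were not called and 1 was lower. A further 9 members were called higher at 24 h and not at 3 h. These patterns were counted over the members only. Among all genes, 16.8% to 22.9% were called higher and 14.7% to 20.4% lower at each time. How often all genes show the same patterns was not computed.

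Direct comparison of LatB groups gave the order of these changes without a control in the contrast. From 3 h to 6 h, 9 members fell (21.4%, against 10.3% of all genes) and 8 rose (19%, against 11.9%). Of the 13 factors and feedback genes, 7 fell and 0 rose, among them CHAC1 (-0.97, edgeR adjusted p 0.0073), ATF3 (-0.75, adjusted p 0.000232), PPP1R15A (-0.46), ATF4 (-0.29, adjusted p 0.0017) and ATF5 (-0.27). The 8 that rose comprised 4 tRNA ligases, the synthesis genes PSAT1 (0.68, adjusted p 0.0157), ASNS (0.34) and SHMT2 (0.30), and SLC7A1 (0.38, adjusted p 0.0102). The PSAT1, ASNS and GARS1 calls were lost on leaving out single libraries, PSAT1 without LatB 6 h replicate 1. When transcript length was allowed for, 3 members rose, and over all genes the rises went from 1986 to 1091 of 16705.

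From 6 h to 24 h, 17 members were lower (40.5%, against 18.9% of all genes) and 9 higher (21.4%, against 19%), with a median log2 change of -0.17 beside 0.00 over all genes. Transporters led the falls, with 6 of 7 lower and 0 higher, from SLC7A1 (-1.61, edgeR adjusted p 1.52e-07) and SLC6A9 (-1.25, adjusted p 2.12e-06) to SLC3A2 (-0.51). Of the 15 members that had been higher at 3 h and 6 h, 12 were lower at 24 h than at 6 h. Their choice by the 6 h level favours such a fall, and the share over all genes chosen alike was not computed. Those higher at 24 h comprised the ligases SARS1, EPRS1 and WARS1 with XPOT, and also EIF4EBP1 (0.69), ATF3 (0.34), PHGDH, PYCR1 and ALDH18A1, of which only EPRS1, XPOT, EIF4EBP1 and ALDH18A1 held without each library. When transcript length was allowed for, 2 members were called higher in this contrast, and over all genes the rises went from 3169 to 2251 of 16705.

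The test of the difference itself, the LatB effect at 24 h minus that at 6 h, takes the control of 24 h into account. It called 11 members lower (26.2%, against 11.1% of all genes) and 4 higher (9.52%, against 11.4%). The lower ones included SLC7A1 (-1.33, SE 0.143, edgeR adjusted p 6.9e-05), SLC6A9 (-1.18, SE 0.154), SLC7A5 (-0.93, SE 0.0774), SLC38A2 (-0.90, SE 0.0777), ASNS (-0.75, SE 0.14) and ATF4 (-0.64, SE 0.0796). Of the 11, 8 held without each library in turn, and of the 4 higher ones none did. The count of higher ones was 1 without control 0 h replicate 3, LatB 6 h replicate 2 or LatB 24 h replicate 3. All genes there gave 1580 of 16716, 1570 of 16734 and 1558 of 16637 higher. It was 2 without control 0 h replicate 1 or LatB 6 h replicate 1, where all genes gave 1548 of 16729 and 1608 of 16737. The main fit gave 1898 of 16705. Leaving out a control 24 h library left that group without a replicate, so counts of those refits are not compared. SLC6A9 had already been low at 6 h and was lower still at 24 h, while SLC7A1, ASNS and ATF4 had been high.

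The libraries of LatB 12 h disagreed on many members. In replicate 2, 11 members were at least 1.5 times higher than in replicate 1, and 0 were lower by as much, where 12.6% and 8.68% of all genes tested did so. They were SLC7A11 (15.3 CPM in replicate 1 against 50.4 CPM in replicate 2), STC2 (10.2 against 32.6 CPM), GDF15, VLDLR, CARS1, PSAT1, CHAC1, MTHFD2, SESN2, CEBPB and TRIB3. The median log2 ratio of replicate 2 to replicate 1 was 0.16 over members and -0.01 over all genes. Markers of other cell types differed between these libraries too: summed over 3 mesenchymal genes the level was 138.4 CPM in replicate 1 and 763.2 CPM in replicate 2, and over 4 liver-type genes 708.8 and 1436 CPM, with all members of both lists higher in replicate 2. The 4 acinar genes did not move together: PRSS1 went from 4.59 to 37.3 CPM, while CPA1 went from 3.54 to 1.56 CPM, CELA3A from 1.36 to 0.541 CPM, and AMY2A was near 0 in both. The part of these markers in the result was not tested. Elsewhere, 3 members were spread 1.5-fold or more within control 0 h, 0 within control 24 h, 2 within LatB 3 h, 0 within LatB 6 h and 4 within LatB 24 h.

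**Figure D4:**
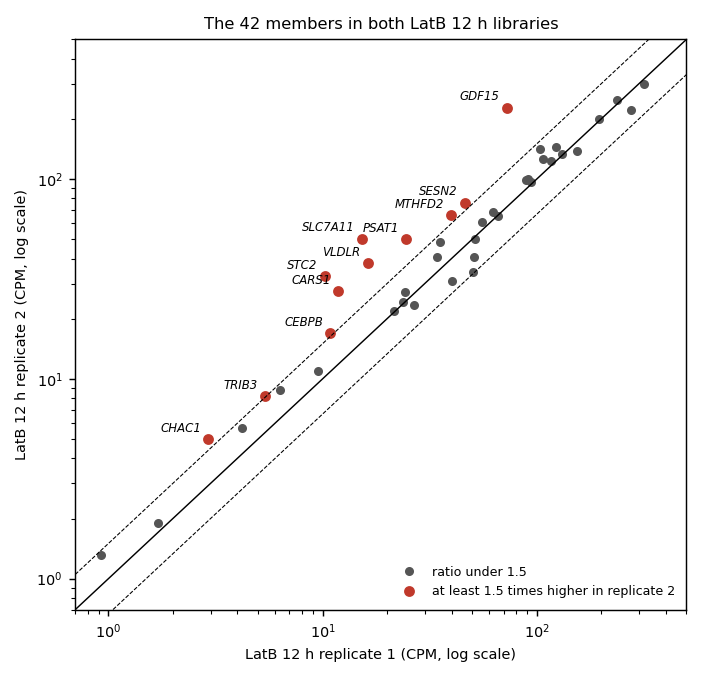
CPM of each of the 42 members in LatB 12 h replicate 1 (horizontal, log scale) and replicate 2 (vertical, log scale), with the line of equality and dashed lines at 1.5-fold. The 11 red, named points lie at or above the upper dashed line and none lies below the lower one.

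Other marker lists also shifted under LatB. The endocrine genes, 6 in all, summed to 27.5 to 34.7 CPM in control 0 h, 58.3 to 69.0 CPM in control 24 h and 89.1 to 252.9 CPM in LatB 24 h. Progenitor markers summed to 1324 to 1400 CPM in control 0 h and 1091 to 1296 CPM in LatB 24 h. The part of these shifts in the changes of the members was not tested.

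Upstream of ATF4, the kinases, eIF2 and eIF2B subunits and their regulators, 15 genes, had 2 higher and 2 lower at 3 h (13.3% each, against 16.8% and 14.7% of all genes). At 6, 12 and 24 h, 6, 1 and 4 were higher (40%, 6.67% and 26.7%, against 22.9%, 19.1% and 21.9%) and 3, 6 and 4 lower (20%, 40% and 26.7%, against 20.4%, 16.8% and 18.8%). The shares at 3 h were near the background. OMA1, the mitochondrial protease that starts the mitochondrial branch, fell at all 4 times, with log2 fold changes of -0.92, -1.61, -0.63 and -0.65 (edgeR adjusted p at most 2.97e-05). Its mean was 19.7 ± 0.311 CPM in control 0 h and 6.46 ± 0.133 CPM at 6 h (SD, n = 3). EIF2AK2, the kinase activated by double-stranded RNA, was also lower at each time (-0.19, -0.56, -0.70 and -0.42). PPP1R15B, the constitutive partner of the eIF2 phosphatase, was higher at 3 h and 6 h (0.48 and 0.39).

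Genes of the unfolded protein response, which acts in the endoplasmic reticulum, were called higher in 8, 11, 7 and 11 of 16 at 3, 6, 12 and 24 h, and lower in 0, 0, 2 and 0. The rises were 50%, 68.8%, 43.8% and 68.8% of the list, against 16.8%, 22.9%, 19.1% and 21.9% of all genes. The median log2 fold change was 0.16, 0.24, 0.18 and 0.25, beside -0.01 to 0.01 over all genes. HERPUD1, a factor of protein degradation there, led at 3 h (1.19, SE 0.0909). XBP1, the transcription factor of the IRE1 branch, was higher throughout (0.79, 1.02, 0.85 and 0.81), and the chaperone HSPA5 was higher by 0.23, 0.31, 0.33 and 0.24.

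Of 12 cytosolic tRNA ligases outside the 42, 10 were higher and 1 lower at 24 h (83.3% and 8.33%, against 21.9% and 18.8% of all genes). Earlier, 5, 6 and 6 were higher at 3, 6 and 12 h (41.7%, 50% and 50%, against 16.8%, 22.9% and 19.1%) and 1, 2 and 0 lower. IARS1, the isoleucine ligase, changed most at 24 h (0.52, edgeR adjusted p 1.3e-05). Of 16 mitochondrial ligases tested, 1 was higher and 6 were lower at both 3 h and 6 h (6.25% and 37.5%, where 14.7% and 20.4% of all genes were lower). TARS2, the mitochondrial threonine ligase, fell by 1.02 at 3 h and 0.54 at 6 h on the log2 scale. By 24 h, 4 of these were higher (25%, near the 21.9% of all genes) and 0 lower. Other enzymes of one-carbon metabolism, 11 genes, had 5 higher (45.5%, against 21.9% of all genes) and 1 lower (9.09%) at 24 h, with the largest rises in SHMT1 (0.82) and MTHFD1 (0.69). At 3 h 0 were higher and 1 was lower (9.09%, against 14.7%).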

How the data were processed

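Poly(A) RNA of 16 libraries was sequenced in 6 groups of time and treatment. Per library, the authors deposited estimated counts (fractional values occur) and TPM values of each transcript, made with Salmon 1.3.0 on hg38 according to the submitters' processing notes. The study's methods describe another route, alignment with STAR and gene counting, and strand use is not given in the sources used here. The authors also deposited a table of their own DESeq2 comparisons with fold changes and p-values, which was not used, nor were its 16 columns of per-sample values.

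Estimated counts were summed per gene through GENCODE 44 (165533 of 177456 transcripts matched by identifier without version, and 2.92% to 3.17% of the reads of a library did not), and rounded. Genes were filtered with filterByExpr and tested with the quasi-likelihood test (two-sided) of edgeR 4.0.16 in R 4.3.3, with all 6 groups in one fit and TMM scaling (factors 0.947 to 1.05). Adjustment followed Benjamini and Hochberg over 16705 genes. SE is the size of the log2 fold change divided by the square root of F. CPM values are scaled by TMM, and TPM values were summed per gene. The scripts were tested on simulated data.

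The 8 contrasts were LatB against its control at each of 4 times, control 24 h against control 0 h, LatB 6 h against 3 h, LatB 24 h against 6 h, and the difference of the effects at 24 h and 6 h. Alternatives were DESeq2 1.42.0, limma-trend 3.58.1 on log2(TPM + 1), RLE factors, no scaling, no filter, a transcript length offset, a fit restricted to the groups compared, a replicate block, the other control as reference, and each library left out in turn. The addition of unmatched transcripts with the lengths of CARS1 was chosen after seeing the data.

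The 42 genes, the pathway and marker lists and the tests were chosen with earlier results of these data known. Members shown with every library are ATF4 and DDIT3, in each role group the 2 with the largest called change under LatB, and in each LatB comparison the largest called rise and fall. The other members and the examples from the pathway lists are named by their calls. Depth of 23609727 to 33515398 reads per library leaves CHAC1, ALDH1L2 and NUPR1 at about 1 to 2 CPM in control 0 h. Sequences were taken from RefSeq (GRCh38.p14) by gene symbol.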

Additional observations from a re-analysis of the deposited data

Results flagged for a closer look

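For 15 members the response to LatB changed between 6 h and 24 h by the test of the difference (edgeR adjusted p under 0.05). The differences in log2 fold change were -1.33 for SLC7A1, -1.28 for CHAC1, -1.18 for SLC6A9, -0.93 for SLC7A5, -0.90 for SLC38A2, -0.75 for ASNS, -0.71 for MTHFD2, -0.64 for ATF4, -0.60 for DDIT3, -0.57 for SLC3A2 and -0.40 for ATF5. The positive ones were 0.31 for EPRS1, 0.36 for XPOT, 0.45 for PHGDH and 0.60 for EIF4EBP1. Without scaling the medians of all genes shifted, as given below. The calls of CHAC1, DDIT3, MTHFD2 and all 4 positive ones were lost on leaving out 1 library, CHAC1 without either control 24 h library or LatB 6 h replicate 1 (-1.29 to -1.10).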

How the results depend on the processing

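Over all alternatives and members, the LatB comparisons with control gave 2377 values on the same side of the threshold as reported, 170 that lost a call, 53 that gained one and 4 that reversed. A value counted as reversed only if its sign changed and the main fit or the alternative called it. Changes of sign without a call in either were counted with the 2377. The addition of reads to CARS1 changed the counts of no other member, so their values there were bound to stay close to the main fit. With the fit restricted to the groups compared, 7 members were lower at 6 h (4 reported), 6 higher (16 reported) and 3 lower (5 reported) at 12 h. Over all genes, 3857 of 15542 were lower at 6 h in that fit, against 3411 of 16705 in the main fit. At 12 h, 1307 were higher and 1521 lower of 15773, against 3189 and 2799 of 16705. Limma-trend on TPM gave 7 higher at 12 h, 9 higher at 24 h (15 reported), 2 higher for LatB 6 h against 3 h (8 reported), 10 lower for LatB 24 h against 6 h (17 reported) and 6 lower for the difference of effects (11 reported). Over all genes, in the same order, it gave 2042, 2450 and 881 higher and 1555 and 792 lower. The main fit gave 3189, 3661 and 1986 higher and 3154 and 1856 lower. The length offset gave 3, 2 and 2 higher in LatB 6 h against 3 h, LatB 24 h against 6 h (9 reported) and the difference (4 reported), and no scaling gave 14 and 9 higher in the last 2. Over all genes the offset gave 1091, 2251 and 1082 higher, where the main fit gave 1986, 3169 and 1898. No scaling gave 5224 and 3156 in the last 2. Without scaling the median of all genes moved to -0.102 at 6 h, 0.137 for LatB 24 h against 6 h and 0.119 for the difference, and the share of higher genes among all calls went from 53.3% to 36.1% at 3 h, 52.8% to 37.7% at 6 h, 50.1% to 73.8% for LatB 24 h against 6 h and 50.6% to 72.3% for the difference. The causes were not tested.

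Leaving out 1 library at a time gave 3 to 5 members lower at 3 h, 8 to 19 higher at 12 h, 8 to 15 higher at 24 h and 0 to 4 higher for the difference. Changes of sign were listed only where the main fit or the alternative gave a call. They were PYCR1 at 6 h (-0.37, limma-trend), STC2 at 12 h (-0.16 without LatB 12 h replicate 2) and ALDH1L2 at 24 h (0.0099 with the length offset, 0.015 with limma-trend). NARS1 also changed sign for LatB 6 h against 3 h (-0.00664, limma-trend), and CEBPG and MARS1 for LatB 24 h against 6 h without scaling (0.11 and 0.13). Changes of sign without a call were not counted.

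Replicate numbers did not pair libraries: over 36 pairs of libraries of the same number the correlation of deviations from group means ran from -0.241 to 0.116, and 4 of 16 libraries were closest to their own number. With the replicate block, 1 member was higher for the difference in place of 4, and the other counts stayed within 1.5 times. Over all genes 1585 were higher for the difference in place of 1898. CHAC1, ALDH1L2 and NUPR1 had the fewest reads.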
